A study of Mus musculus with 21 samples.

Results

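The genes for the CD3 delta, epsilon and gamma chains (Cd3d, Cd3e and Cd3g), for the co-stimulatory receptor CD28 and for the T lineage transcription factor BCL11B were followed in cultured mouse natural killer (NK) cells that lacked Ikaros, Aiolos or both. These 5 genes were taken by name from a deposited table of 11736 genes, and all 5 were in it. Values were in RPKM, which are reads scaled to gene length and to library size. All 5 genes passed the filter on low values (3 or more of the 15 libraries at 1 RPKM or above), as did 10032 genes of the table.

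Ikaros and Aiolos are the zinc finger transcription factors made from Ikzf1 and Ikzf3. The double knockout (DKO) group held 3 libraries (S5 to S7), the Ikzf1 knockout (KO) group 4 (S12 to S15), the Ikzf3 KO group 4 (S1 to S4) and the Cre only group, the controls that carry the recombinase, 4 (S16 to S19). In all 15 the NK cells had been sorted from spleen and then kept in medium with human interleukin 15, a survival factor for NK cells, at 50 ng/ml. The labels used here do not give the promoter that drives Cre, the age of the mice or how many animals a sample holds. They speak of biological replicates per genotype without saying whether each came from its own animal, so the p-values below measure the spread between these samples. The labels describe 21 samples, and the 6 sorted directly for RNA, without culture, were not analysed here. Column names state the genotype only, and columns were assigned to the cultured groups because the group sizes match only these.

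CD3 chains are membrane proteins that pair as epsilon with delta and epsilon with gamma, and carry the signal of the T cell receptor into the cell together with the zeta chain. NK cells use the zeta chain with their own receptors and do not display a T cell receptor, although CD3 transcripts have been described in them. CD28 gives T cells their second signal on meeting the B7 ligands CD80 and CD86. BCL11B fixes the T cell fate in the thymus and is also made in some innate lymphoid cells.

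Reads per library, recovered from the steps between values, ran from 8.61 to 21.25 megareads over the 11291 genes that came out whole. The genes deleted were lower in the cells meant to lack them without being at 0: Ikzf1 averaged 30.3 RPKM in DKO and 19.1 RPKM in Ikzf1 KO cells, against 61.9 RPKM in Cre only cells. Ikzf3 averaged 21.5 RPKM in DKO and 17.8 RPKM in Ikzf3 KO cells, against 41.8 RPKM in Cre only cells. Of 10 NK cell markers 9 were in the table, and each was at 1 RPKM or more in a library of every group. Libraries of a group were not always alike. Across the 10032 genes, which are not independent replicates, S1 and S2 correlated at 0.99 and S3 and S4 at 0.974, but the pairs with each other at only 0.895 to 0.913. The Cre only libraries formed a close pair S16 and S17 (r = 0.993) and another S18 and S19 (r = 0.988), with 0.964 to 0.975 from pair to pair. Results that turn on these libraries are repeated with S3 and S4, S16 and S17, or S18 and S19 left out.

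The Cd3 genes lie together on chromosome 9 (mm10, GENCODE annotation), within 40.1 kb. Cd3g (ENSMUSG00000002033, positions 44969572 to 44980431) is on the minus strand, and Cd3d (ENSMUSG00000032094, 44981786 to 44987339) on the plus strand. They point away from each other with their starts 1355 bases apart. Cd3e (ENSMUSG00000032093, 44998740 to 45009627) is on the minus strand and starts 27841 bases from the start of Cd3d. Cd28 (ENSMUSG00000026012) is on chromosome 1 (60716800 to 60773359, plus strand) and Bcl11b (ENSMUSG00000048251) on chromosome 12 (107910403 to 108003602, minus strand).

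The promoters of the 3 Cd3 genes are shown because, of these neighbours, Cd3d and Cd3e were called higher in DKO than in Cre only cells and Cd3g was not, a difference between genes that was not tested. Each is the 250 bases before the start that RefSeq gives (GRCm38.p6), written 5′ to 3′ on the strand of the gene: chr9:44981536-44981785 for Cd3d, chr9:45009612-45009861 for Cd3e and chr9:44980432-44980681 for Cd3g. Capitals mark TGGGAA, a core of the sites that Ikaros family proteins bind.
Cd3d: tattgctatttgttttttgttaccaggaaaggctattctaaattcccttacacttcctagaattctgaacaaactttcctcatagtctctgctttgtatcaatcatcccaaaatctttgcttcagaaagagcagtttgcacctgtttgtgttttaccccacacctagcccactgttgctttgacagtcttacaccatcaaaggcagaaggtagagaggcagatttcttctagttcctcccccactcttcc
Cd3e: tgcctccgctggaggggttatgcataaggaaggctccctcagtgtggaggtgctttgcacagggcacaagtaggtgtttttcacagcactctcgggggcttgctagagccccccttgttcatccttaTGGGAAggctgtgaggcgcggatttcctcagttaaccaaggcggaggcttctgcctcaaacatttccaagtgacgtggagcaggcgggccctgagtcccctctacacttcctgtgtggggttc
Cd3g: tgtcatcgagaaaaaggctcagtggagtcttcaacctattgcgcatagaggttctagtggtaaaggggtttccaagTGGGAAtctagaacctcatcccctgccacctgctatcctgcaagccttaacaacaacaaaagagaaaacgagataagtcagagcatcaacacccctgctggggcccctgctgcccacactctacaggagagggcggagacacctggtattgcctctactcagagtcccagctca
Both strands were searched for TGGGAA and for TGANTCA, the AP-1 site. TGGGAA stood once in the Cd3e promoter, from 123 bases before the start, and once in that of Cd3g, from 174 bases before it. It was absent from the windows of Cd3d and Bcl11b, and TGANTCA was in none of these 4 windows. The table held promoters for 4 of the 5 genes, all but Cd28. Of the 32851 mouse promoters of this length 21.6% held TGGGAA and 6.75% held TGANTCA. The shares of G and C were 41.2% for Cd3d, 57.2% for Cd3e, 51.6% for Cd3g and 44.8% for Bcl11b.

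CD3 delta and epsilon transcripts were far more abundant in DKO cells than in Cre only cells, whereas the gamma chain did not pass the test. Cd28 rose in DKO cells and in Ikzf3 KO cells, and the difference between these did not pass. Bcl11b fell in Ikzf3 KO cells. In Ikzf1 KO cells none of the 5 genes passed.

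Cd3d, the delta chain, stood at 63.8, 177 and 164 RPKM in DKO libraries S5 to S7. It stood at 19.2, 24.5, 26.8 and 8.25 RPKM in Ikzf1 KO libraries S12 to S15, at 13.96, 24.3, 10.6 and 22.4 RPKM in Ikzf3 KO libraries S1 to S4, and at 20.4, 23.9, 6.75 and 2.97 RPKM in Cre only libraries S16 to S19. All 3 DKO libraries lay above the other 12, and the other 3 groups overlapped. The means were 135 ± 62.0 RPKM in DKO (SD, n = 3), 19.7 ± 8.26 in Ikzf1 KO, 17.8 ± 6.61 in Ikzf3 KO and 13.5 ± 10.2 RPKM in Cre only cells (SD, n = 4 each). These levels came from 1726 to 6560 reads in DKO and from 88 to 638 reads in Cre only libraries.

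Cd3e, the epsilon chain that both CD3 pairs need, stood at 24.8, 42.4 and 44.8 RPKM in DKO libraries S5 to S7. Ikzf1 KO libraries S12 to S15 held 1.64, 2.73, 2.87 and 0.403 RPKM, Ikzf3 KO libraries S1 to S4 held 1.67, 1.62, 0.935 and 1.33 RPKM, and Cre only libraries S16 to S19 held 3.10, 2.50, 0.237 and 0.240 RPKM. The lowest DKO library was far above the highest of the other 12, and those overlapped. Means were 37.3 ± 10.9 RPKM in DKO (SD, n = 3), 1.91 ± 1.15 in Ikzf1 KO, 1.39 ± 0.338 in Ikzf3 KO and 1.52 ± 1.5 RPKM in Cre only cells (SD, n = 4 each). The Cre only libraries S18 and S19 rested on 13 and 16 reads, S16 and S17 on 183 and 150, and the DKO libraries on 1505 to 3525.

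Cd3g, the gamma chain, stood at 30.2, 52.4 and 56.3 RPKM in DKO libraries S5 to S7. It stood at 16.7, 21.0, 23.9 and 6.79 RPKM in Ikzf1 KO libraries S12 to S15, at 15.4, 19.4, 6.78 and 7.69 RPKM in Ikzf3 KO libraries S1 to S4, and at 46.9, 49.1, 24.8 and 8.01 RPKM in Cre only libraries S16 to S19. DKO libraries lay above every library of both single knockouts but overlapped with S16 and S17. Cre only cells, at 32.2 ± 19.5 RPKM, spread so widely that they overlapped with each of the other groups. The means were 46.3 ± 14.1 RPKM in DKO (SD, n = 3), 17.1 ± 7.50 in Ikzf1 KO and 12.3 ± 6.08 RPKM in Ikzf3 KO cells (SD, n = 4 each).

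Within each group the 3 CD3 genes were low in the same libraries. S5 was the lowest DKO library, S15 the lowest Ikzf1 KO library and S3 the lowest Ikzf3 KO library for all 3 genes. Among Cre only libraries, S18 and S19 were below S16 and S17 for all 3. No label gives a day, an animal or a batch for any library, so what parts them was not tested.

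Cd28 had a different order. It stood at 18.6, 20.3 and 21.4 RPKM in DKO libraries S5 to S7 and at 29.2, 26.2, 46.5 and 41.6 RPKM in Ikzf3 KO libraries S1 to S4. It stood at 4.28, 6.84, 5.31 and 2.95 RPKM in Ikzf1 KO libraries S12 to S15, and at 2.86, 3.03, 8.77 and 8.77 RPKM in Cre only libraries S16 to S19. Every DKO library was below every Ikzf3 KO library and above the other 8, among which Ikzf1 KO and Cre only libraries overlapped. The means were 20.1 ± 1.41 RPKM in DKO (SD, n = 3), 35.9 ± 9.76 in Ikzf3 KO, 4.84 ± 1.64 in Ikzf1 KO and 5.86 ± 3.37 RPKM in Cre only cells (SD, n = 4 each). In Cre only libraries Cd28 ran against the CD3 chains, being higher in S18 and S19.

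Bcl11b was the weakest of the 5 genes per length in the DKO, Ikzf1 KO and Ikzf3 KO groups. It stood at 1.29, 0.944 and 1.68 RPKM in DKO libraries S5 to S7 and at 0.270, 0.239, 0.265 and 0.386 RPKM in Ikzf3 KO libraries S1 to S4, on 17 to 38 reads. It stood at 1.15, 0.814, 1.17 and 0.986 RPKM in Ikzf1 KO libraries S12 to S15, and at 2.97, 2.82, 1.21 and 1.20 RPKM in Cre only libraries S16 to S19. All Ikzf3 KO libraries were below the other 11, the Ikzf1 KO libraries were just below the lowest Cre only library, and the DKO libraries overlapped with Cre only and Ikzf1 KO libraries. Means were 1.31 ± 0.368 RPKM in DKO (SD, n = 3), 0.290 ± 0.0656 in Ikzf3 KO, 1.03 ± 0.166 in Ikzf1 KO and 2.05 ± 0.976 RPKM in Cre only cells (SD, n = 4 each). In a bulk sample, fewer cells of a type and less RNA per cell cannot be told apart.

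**Figure D1:**
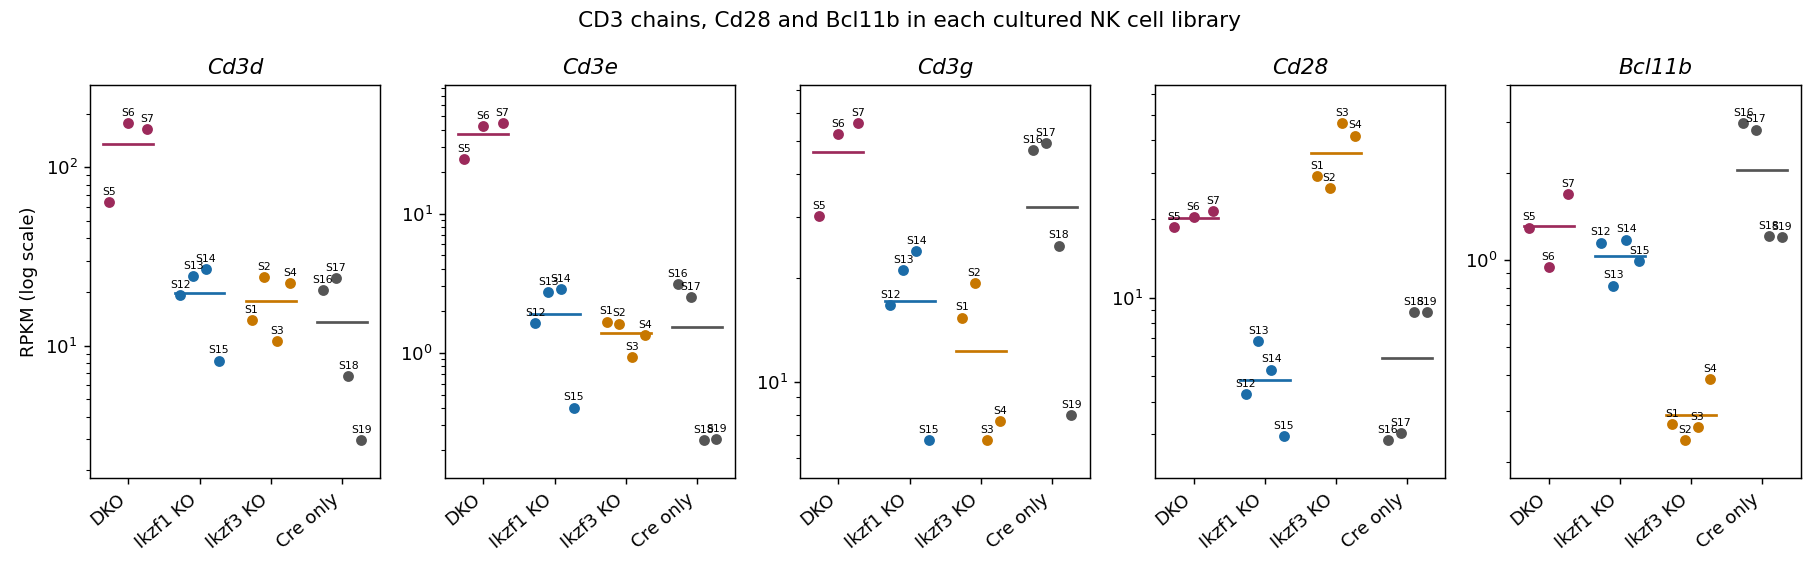
RPKM of the 5 genes on a log axis, with 1 point per library and its name, and a bar at each group mean. DKO libraries stand above all others for Cd3d and Cd3e and overlap with Cre only libraries for Cd3g, and Ikzf3 KO libraries are the highest for Cd28 and the lowest for Bcl11b.

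Group means were compared in limma on log2(RPKM + 0.5), a scale that understates the change of weak genes such as Bcl11b and Cd3e. All 10032 genes and 15 libraries entered the fit, and p-values were adjusted by the method of Benjamini and Hochberg over all genes, with 0.05 as the threshold. In DKO against Cre only cells, 3 of the 5 genes were called higher and none lower, where 8.06% of all genes were called higher. Cd3e rose 23.5-fold (log2 change 4.55 ± 0.57 SE, limma adjusted p = 7.16e-05), Cd3d 11.6-fold (3.54 ± 0.62, adjusted p = 0.00124) and Cd28 3.64-fold (1.86 ± 0.37, adjusted p = 0.00306). Cd3g differed by 0.76 ± 0.58 (adjusted p = 0.398), with a 95% interval of -0.48 to 2.00. Bcl11b differed by -0.43 ± 0.25 (adjusted p = 0.261). The same 3 genes did not overlap between DKO and Cre only libraries, as was so for 16.1% of all genes in that direction, and Cd3d and Cd3e were above all 12 libraries of the other groups, as were 4.34% of all genes.

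These sizes turned on which Cre only libraries were used, although the 3 calls held without either pair. Without S18 and S19 the log2 change in DKO cells was 3.48 for Cd3e, 2.45 for Cd3d and 2.58 for Cd28. Without S16 and S17 it was 5.63 for Cd3e, 4.62 for Cd3d and 1.15 for Cd28. Bcl11b was called lower in DKO cells without S18 and S19 (-0.93, limma adjusted p = 0.00899) and stood at 0.06 without S16 and S17. Cd3g stood at -0.10 without S18 and S19 and at 1.62 without S16 and S17, and passed in neither.

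In Ikzf3 KO against Cre only cells, 1 of the 5 genes was called higher and 1 lower, where 14.2% of all genes were called in either direction. Cd28 rose 6.26-fold (log2 change 2.65 ± 0.34, limma adjusted p = 0.000368) and Bcl11b fell by 1.61 ± 0.24 on the log2 scale (adjusted p = 0.000798). Groups of libraries parted completely for Cd28, as for 7.68% of genes that were higher, and for Bcl11b, as for 10.5% of genes that were lower. Cd3d stood at 0.71 ± 0.57 (adjusted p = 0.391), Cd3e at 0.26 ± 0.53 (adjusted p = 0.749) and Cd3g at -1.19 ± 0.54 (adjusted p = 0.135). Without S16 and S17 the change was 1.93 for Cd28 and -1.11 for Bcl11b, and without S18 and S19 it was 3.36 for Cd28 and -2.11 for Bcl11b, all 4 past the threshold. Without S3 and S4 it was 2.31 for Cd28 and -1.67 for Bcl11b, both called. With a pseudocount of 0.1 in place of 0.5 Bcl11b fell by 2.36 here, and Cd3e stood at 5.20 in DKO against Cre only cells. Without S18 and S19, Cd3g was also called lower (-2.05, adjusted p = 0.0274), as it was without S19 alone (-1.74, adjusted p = 0.0273).

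In Ikzf1 KO against Cre only cells, 0 of the 5 genes were called by limma, where 6.32% of all genes were. The changes were 0.80 ± 0.57 for Cd3d (adjusted p = 0.519), 0.46 ± 0.53 for Cd3e (adjusted p = 0.743), -0.73 ± 0.54 for Cd3g (adjusted p = 0.528), -0.13 ± 0.34 for Cd28 (adjusted p = 0.905) and -0.66 ± 0.24 for Bcl11b (adjusted p = 0.123). Only Bcl11b had an unadjusted limma p under 0.05 (0.0141), and only for Bcl11b did the libraries part, as they did for 13.2% of all genes that were lower. The 95% intervals ran from -0.43 to 2.03 for Cd3d, -0.67 to 1.58 for Cd3e and -1.88 to 0.41 for Cd3g. Without S18 and S19, Bcl11b was called lower (-1.16, adjusted p = 0.0037), and Cd3d, Cd3e and Cd28 changed sign.

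**Figure D2:**
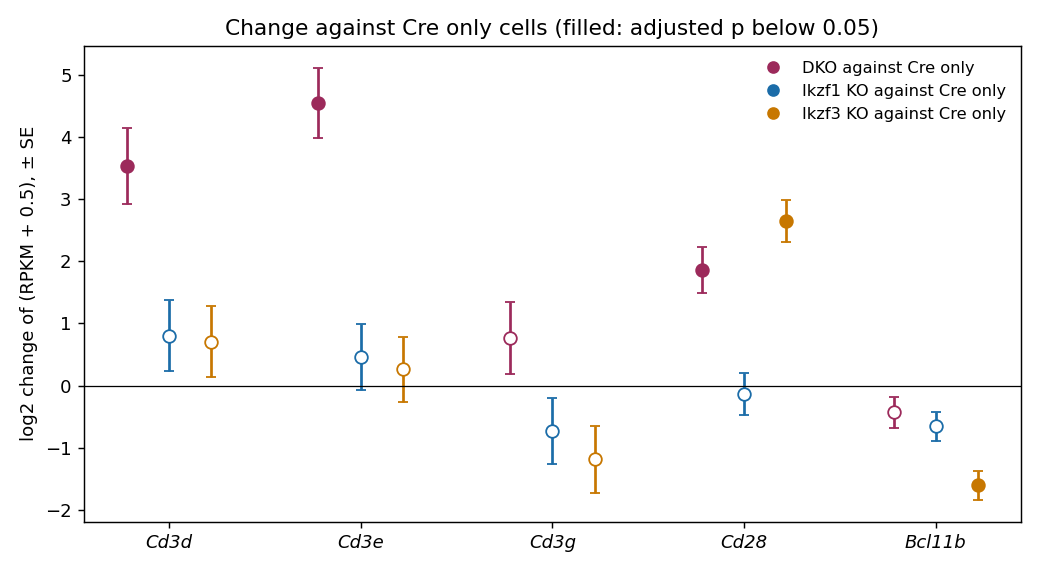
Log2 change of (RPKM + 0.5) against Cre only cells, with bars of 1 SE, for DKO, Ikzf1 KO and Ikzf3 KO cells from left to right within each gene. Filled points passed an adjusted p of 0.05: Cd3d, Cd3e and Cd28 in DKO cells and Cd28 and Bcl11b in Ikzf3 KO cells.

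Comparisons of DKO with each single knockout use the Cre only libraries only for the shared estimate of the spread. Against Ikzf1 KO cells, 3 of the 5 genes were called higher, where 3.76% of all genes were. The log2 change was 4.09 ± 0.57 for Cd3e (limma adjusted p = 0.000465), 2.74 ± 0.62 for Cd3d (adjusted p = 0.0143) and 2.00 ± 0.37 for Cd28 (adjusted p = 0.00365). Cd3g stood at 1.5 ± 0.58 (adjusted p = 0.139) and Bcl11b at 0.22 ± 0.25 (adjusted p = 0.675). Libraries parted completely for 4 genes, Cd3g included, as for 14.5% of all genes that were higher. Cd3d lost its call without S6 (adjusted p = 0.0823) and without S7 (adjusted p = 0.0577).

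Against Ikzf3 KO cells, 4 of the 5 genes were called higher in DKO cells, where 10.2% of all genes were, and the libraries of the same 4 parted completely, as for 12.4% of all genes that were higher. Cd3e was higher by 4.29 ± 0.57 (limma adjusted p = 0.000121), Cd3d by 2.83 ± 0.62 (adjusted p = 0.00535), Cd3g by 1.95 ± 0.58 (adjusted p = 0.0292) and Bcl11b by 1.18 ± 0.25 (adjusted p = 0.00496; 1.83 with a pseudocount of 0.1) on the log2 scale. Cd28 was at -0.78 ± 0.37 (limma adjusted p = 0.143). Its DKO libraries all lay below its Ikzf3 KO libraries, but the share of all genes that parted in this direction was not counted. Cd28 was called lower when S16 and S17 (limma adjusted p = 0.0475) or S18 and S19 (adjusted p = 0.0464) were left out. The call of Cd3g was lost without S3 and S4 (1.35, adjusted p = 0.182), without S3 alone (adjusted p = 0.0848), S4 (0.0664), S6 (0.0987) or S7 (0.0959).

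Whether the loss of both factors gave more than the sum of the single losses on the log2 scale was tested as (DKO minus Ikzf1 KO) minus (Ikzf3 KO minus Cre only). For 2 of the 5 genes this departure was called positive, where 3.63% of all genes were. Cd3e departed by 3.84 ± 0.77 (limma adjusted p = 0.00874): the single losses added up to a small difference and DKO cells lay far above. Bcl11b departed by 1.83 ± 0.35 (adjusted p = 0.00642) from the opposite side, since it was lowest with Aiolos alone missing and near the level of Ikzf1 KO cells when both were. Cd3g (2.68 ± 0.79, adjusted p = 0.0576) and Cd3d (2.03 ± 0.84, adjusted p = 0.185) did not pass, nor did Cd28 (-0.65 ± 0.50, adjusted p = 0.484). Without S18 and S19 all of Cd3e (4.91), Cd3d (3.11), Cd3g (3.55) and Bcl11b (2.33) passed, and without S16 and S17 only Cd3e (2.76) and Bcl11b (1.34) did. The departure of Bcl11b was 2.65 with a pseudocount of 0.1. Cd3g also passed without S2 (2.94, adjusted p = 0.0399) and without S19 (3.23, adjusted p = 0.0106).

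The make-up of the CD3 transcripts differed between groups as well as their sum. Per length, the 3 genes summed to 119 to 272 RPKM in DKO libraries, 15.4 to 53.6 in Ikzf1 KO, 18.3 to 45.3 in Ikzf3 KO and 11.2 to 75.5 RPKM in Cre only libraries. Cd3g was the largest part in every Cre only library, with 65.0% to 78.0% of the sum. It made up 19.3% to 25.4% in DKO, 43.6% to 44.7% in Ikzf1 KO and 24.4% to 49.5% in Ikzf3 KO libraries, with no overlap with Cre only libraries. The ratio of Cd3g to Cd3d was 0.296 to 0.473 in DKO, 0.822 to 0.893 in Ikzf1 KO and 0.343 to 1.1 in Ikzf3 KO libraries, against 2.06 to 3.67 in Cre only libraries.

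The ratio of Cd3e to Cd3g set DKO cells apart from the rest. It was 0.795 to 0.820 in the 3 DKO libraries, 0.0594 to 0.130 in Ikzf1 KO, 0.0836 to 0.173 in Ikzf3 KO and 0.00954 to 0.0662 in Cre only libraries. S5, whose CD3 levels were the lowest of the DKO group, held the same ratio as S6 and S7. Cd3e made up 15.6% to 20.8% of the sum in DKO libraries and at most 5.66% in any other. These ratios were formed after the levels were seen and are given as a description, with no test. The ratio of Cd3d to Trac, the constant part of the T cell receptor alpha chain, was 0.831 to 1.35 in DKO, 0.938 to 2.02 in Ikzf1 KO, 0.718 to 2.62 in Ikzf3 KO and 0.329 to 1.02 in Cre only libraries, with DKO libraries overlapping with each of the other groups. For Cd3e the ratio to Trac did not overlap. It was 0.23 to 0.369 in DKO, 0.0458 to 0.217 in Ikzf1 KO, 0.0733 to 0.156 in Ikzf3 KO and 0.0178 to 0.118 in Cre only libraries.

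**Figure D3:**
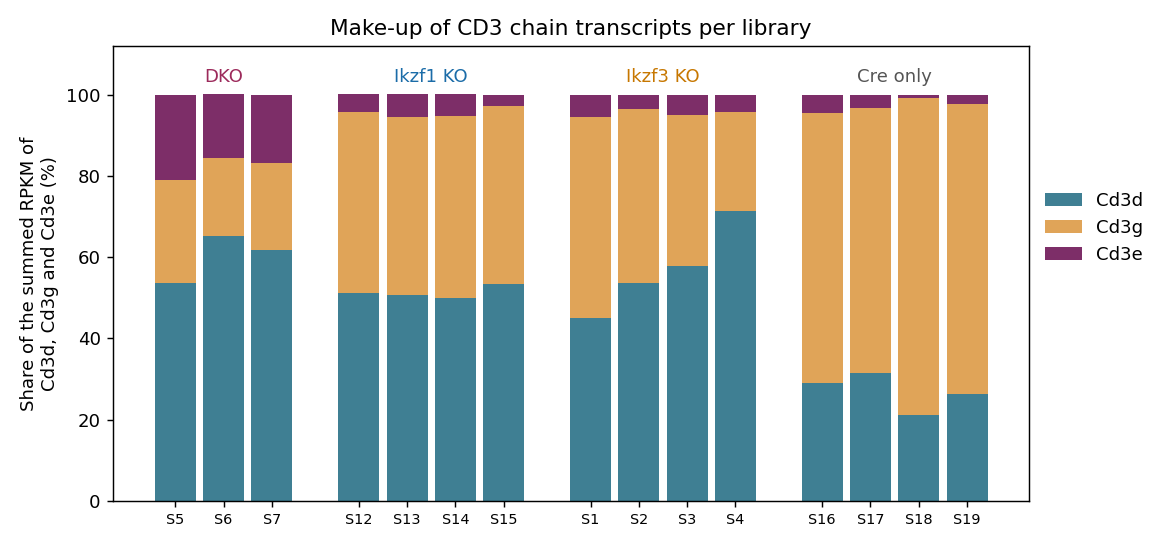
Share of Cd3d, Cd3g and Cd3e in their summed RPKM, with 1 stacked bar per library. Cd3g takes 65.0% to 78.0% in Cre only libraries and 19.3% to 25.4% in DKO libraries, where Cd3e takes 15.6% to 20.8%.

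Other parts of the receptor and its co-receptors were counted as well. Of 21 such genes 16 were in the table and 12 were tested. In DKO against Cre only cells 1 rose, 3 fell and 8 did not pass, where 8.06% of all genes rose and 10.6% fell, with a median log2 change of -0.12 beside -0.001 for all genes tested. Cd226, an activating adhesion receptor, rose (1.45 ± 0.30, limma adjusted p = 0.00372). Tnfrsf9, the co-stimulatory receptor 4-1BB (-1.63 ± 0.41), Cd7 (-1.43 ± 0.39) and Icos, a relative of CD28 (-0.91 ± 0.29), fell. When S16 and S17, or S18 and S19, were left out, 1 of the list fell. Against Ikzf1 KO cells 2 of the 12 were higher in DKO cells, where 3.76% of all genes were, and none was lower. The 2 were Cd2 (2.98 ± 0.56, limma adjusted p = 0.00408) and Cd27 (2.42 ± 0.22, adjusted p = 1.29e-05). The departure from additivity was positive for 4 of the 12, Cd2, Cd226, Cd247 and Cd27, where 3.63% of all genes had a positive one. It was negative for Ctla4, and the share of all genes with a negative one is not given here.

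Cd247, which encodes the zeta chain, did not pass in DKO against Cre only cells. It stood at 12.5, 17.3 and 15.9 RPKM in DKO libraries S5 to S7 and at 17.5, 17.4, 24.8 and 26.5 RPKM in Cre only libraries S16 to S19, with a log2 change of -0.47 ± 0.22 (limma adjusted p = 0.159). It fell in Ikzf1 KO (-1.06 ± 0.21, adjusted p = 0.00673) and in Ikzf3 KO cells (-0.78 ± 0.21, adjusted p = 0.024). Fcer1g, the gamma chain of Fc receptors that can stand in for zeta in NK cells, did not pass in any of these comparisons, with log2 changes of -0.44 ± 0.19 in DKO, -0.38 ± 0.17 in Ikzf1 KO and -0.35 ± 0.17 in Ikzf3 KO cells. In the single knockouts this list had 0 higher and 3 lower in Ikzf1 KO cells (Cd27, Cd247 and Icos), and 1 higher (Ctla4) and 3 lower (Cd226, Cd247 and Cd7) in Ikzf3 KO cells. Of all genes 2.78% were called lower in Ikzf1 KO and 7.88% in Ikzf3 KO cells.

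Signalling next to the receptor was examined over 33 genes, of which 31 were in the table and 30 were tested. In DKO cells 3 rose, 7 fell and 20 did not pass, with a median of -0.24, again beside 8.06% and 10.6% of all genes. The 3 that rose were Sit1 (2.91 ± 0.33, limma adjusted p = 2.77e-05), an adaptor that dampens receptor signals, the scaffold Lat (1.22 ± 0.25, adjusted p = 0.0035) and Ubash3a (1.16 ± 0.28, adjusted p = 0.00964), a negative regulator in T cells. Sit1 stood at 10.2, 20.7 and 14.1 RPKM in DKO libraries and between 0.647 and 2.48 RPKM in Cre only libraries. Fyn, a Src family kinase (-0.72 ± 0.12), the membrane adaptor Pag1 (-1.34 ± 0.22) and the phosphatase Ubash3b (-0.98 ± 0.19) were among those that fell. The 7 became 12 without S3 and S4 and 4 without S16 and S17. In Ikzf1 KO cells 3 of the 30 fell, where 2.78% of all genes fell, and in Ikzf3 KO cells 9 fell, where 7.88% did, none rising in either.

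CD28 was set beside 15 genes of its own pathway, of which 12 were tested. In Ikzf3 KO cells 1 rose and 1 fell, where 14.2% of all genes were called in either direction. Ctla4, the inhibitory receptor that shares the ligands of CD28, rose (2.46 ± 0.49, limma adjusted p = 0.00617), and Vav1, an exchange factor below CD28, fell (-0.57 ± 0.15, adjusted p = 0.0242). Ctla4 stood at 5.89, 6.16, 23.5 and 15.7 RPKM in Ikzf3 KO libraries S1 to S4 and at 1.96, 2.80, 1.56 and 0.578 RPKM in Cre only libraries S16 to S19, higher in S3 and S4 as was Cd28. In DKO cells, where Cd28 also rose, Ctla4 stood at 0.0288, 0.147 and 1.44 RPKM, a log2 change of -3.70 ± 0.53 against Ikzf3 KO cells (adjusted p = 0.000261). In DKO cells 1 of the 12 rose and 5 fell, where 8.06% of all genes rose and 10.6% fell. The B7-related ligand Icosl rose (0.57 ± 0.14). Among those that fell were the PD-1 ligand Pdcd1lg2 (-2.13 ± 0.31) and the kinase subunits Pik3r1 (-0.89 ± 0.16) and Pik3cd (-0.74 ± 0.18). In Ikzf1 KO cells none rose and 2 fell, Icos and Pdcd1lg2, where 2.78% of all genes fell.

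BCL11B works with the NuRD complex, and 14 genes of its partners and of genes known to lie under it in T cells were listed, of which 12 were tested. None passed in Ikzf3 KO cells, where Bcl11b was lowest, nor in Ikzf1 KO cells, while 4 and 1 of them had an unadjusted limma p under 0.05. Of all genes 14.2% passed in Ikzf3 KO and 6.32% in Ikzf1 KO cells. In limma the smallest adjusted p in Ikzf3 KO cells was that of Mbd3 (-0.64 ± 0.21, adjusted p = 0.0585), a NuRD subunit. In DKO cells 1 of the 12 rose and 1 fell, where 8.06% of all genes rose and 10.6% fell. Tcf7 rose (1.82 ± 0.39, limma adjusted p = 0.00513) and Nfil3, a factor of early NK cell development, fell (-1.89 ± 0.50, adjusted p = 0.0174). Tcf7 encodes TCF-1 and is on this list, although TCF-1 also acts before BCL11B in the thymus. Tcf7 stood at 190, 115 and 115 RPKM in DKO libraries S5 to S7 and at 50.1, 40.8, 26.4 and 39.6 RPKM in Cre only libraries S16 to S19. In Ikzf3 KO libraries S1 to S4 it stood at 32.9, 33.3, 80.4 and 127.5 RPKM, so that S4 overlapped with DKO libraries.

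Among 26 transcription factors of the T lineage 18 were tested. In DKO cells 4 rose, 3 fell and 11 did not pass, with a median of 0.04, set against 8.06% of all genes higher and 10.6% lower. Ikzf2, which encodes the related factor Helios (3.40 ± 0.40, limma adjusted p = 4.35e-05), and Sox4 (2.72 ± 0.32, adjusted p = 3.96e-05) rose together with Tcf7, while Gfi1 (-1.13 ± 0.21) and Notch1 (-1.05 ± 0.22) fell. Sox4 alone rose in Ikzf1 KO cells (1.41 ± 0.29, adjusted p = 0.0101) and none fell, where 6.32% of all genes were called in either direction. In Ikzf3 KO cells, where 14.2% of all genes were called in either direction, Bach2 (0.90 ± 0.19) and Myb (1.39 ± 0.32) rose. Tox, which NK and T cell precursors need, fell there (-1.69 ± 0.18, limma adjusted p = 8.26e-05). Myb rose in DKO cells as well (1.36 ± 0.34, limma adjusted p = 0.01285).

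Some T cell markers outside the 5 genes were higher in DKO cells and others were not. Of 11 such markers 9 were in the table, and their summed RPKM was 707 to 1430 in DKO libraries, 435 to 513 in Ikzf1 KO, 468 to 620 in Ikzf3 KO and 444 to 643 in Cre only libraries. Of the 5 tested, 3 rose in DKO cells, where 8.06% of all genes did: Trac (2.82 ± 0.37, limma adjusted p = 0.000114), Trbc2 (1.48 ± 0.24, adjusted p = 0.000631) and Lat. Trdc stood at -0.06 ± 0.28 (limma adjusted p = 0.914) and Trbc1 at 0.01 ± 0.20 (adjusted p = 0.989). The DKO libraries were unlike for Trdc, with 14.3, 14.4 and 42.5 RPKM in S5 to S7, against 19.2 to 24.7 RPKM in Cre only libraries. Trbc1, the largest value of the sum in Cre only cells, ran from 202 to 410 RPKM in DKO and from 264 to 311 RPKM in Cre only libraries. None of the markers was at 0 in all libraries of a group. Trac stood at 76.8, 185 and 121 RPKM in DKO libraries S5 to S7 and at 26.2, 23.3, 13.3 and 9.03 RPKM in Cre only libraries S16 to S19.

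Cd4, Cd8a, Cd6 and Themis, which are on the same list of markers, were low in all groups. Cd4 stood at 1.299, 1.26 and 0.256 RPKM in DKO libraries, on 78, 104 and 16 reads, and at 0.274, 0.522, 0.0184 and 0 RPKM in Cre only libraries. Cd8a stood at 0.0554, 0.0405 and 0.0355 RPKM in DKO libraries and at 0.761, 0.411, 0 and 0 RPKM in Cre only libraries, being highest in the controls S16 and S17. Themis, an adaptor of thymocytes and T cells, stood at 0.149, 0.323 and 0.426 RPKM in DKO libraries S5 to S7, on 26 to 77 reads. Each of these was above every library of the other groups. Themis reached at most 0.0414 RPKM in Cre only, 0.0516 in Ikzf1 KO and 0.0272 RPKM in Ikzf3 KO libraries. Cd6 reached 1.37 RPKM in S7 and at most 0.444 RPKM outside the DKO group.

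Genes for T cell receptor segments were looked at next. Of 7 constant segments tested 5 rose in DKO cells, where 8.06% of all genes did. None fell, and both counts held without any of the 3 pairs of libraries. The 5 were Trac, Trbc2, Tcrg-C2 (5.33 ± 0.77, limma adjusted p = 0.000257), Tcrg-C1 (3.55 ± 0.61, adjusted p = 0.000996) and Tcrg-C4 (2.55 ± 0.60, adjusted p = 0.00921). The 16 variable segments of the beta locus in the table summed to 171 to 622 RPKM in DKO libraries, 4.41 to 21.2 in Ikzf1 KO, 4.42 to 18.7 in Ikzf3 KO and 2.23 to 20.6 RPKM in Cre only libraries. All 16 were at 1 RPKM or more in every DKO library, and 1 of them in every Cre only library. Whether segments entered the table of 11736 genes through their level in DKO libraries was not tested. Sums and counts of segments may therefore favour the DKO group. Over all 27 variable segments in the table the sum was 260 to 768 RPKM in DKO, 34.7 to 79.1 in Ikzf1 KO, 69.5 to 95.01 in Ikzf3 KO and 55.8 to 83.9 RPKM in Cre only libraries. In Ikzf3 KO cells none of the 7 rose and 2 fell, where 7.88% of all genes fell. They were Trdc (-1.13 ± 0.26, limma adjusted p = 0.0126) and Tcrg-C1 (-1.92 ± 0.56, adjusted p = 0.0359). In Ikzf1 KO cells, where 6.32% of all genes passed, none of the 7 passed in limma, 0 of them at an unadjusted p under 0.05. The part of T cells among the cultured cells in these results was not tested.

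**Figure D4:**
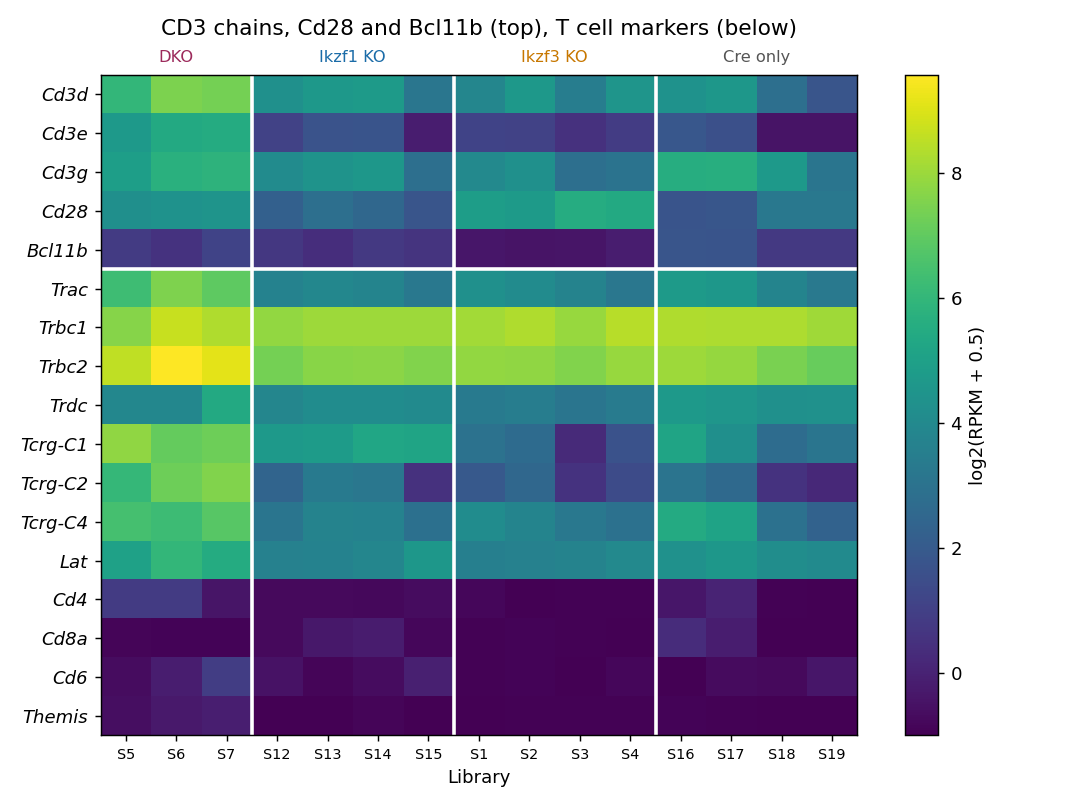
Log2(RPKM + 0.5) of the 5 genes, above the white line, and of T cell markers and receptor constant segments, below it, in each library. Trac, Trbc2 and the 3 gamma constant segments are brightest in DKO libraries, as Cd3d and Cd3e are, while Cd4, Cd8a, Cd6 and Themis stay dark throughout, none above 1.37 RPKM.

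Markers of other cells were looked at in the same way. No NK cell marker rose in DKO cells and 3 of 9 fell, where 8.06% of all genes rose and 10.6% fell. The 3 were Prf1 (-4.60 ± 0.57), Gzma (-1.95 ± 0.31) and Nkg7 (-0.50 ± 0.14), all granule proteins. The summed RPKM of the 9 was 3093 to 5883 in DKO libraries and 11850 to 14550 in Cre only libraries, of which Gzma alone made up 1422 to 3974 in DKO and 9506 to 11750 RPKM in Cre only libraries. The median log2 change of the 9 was -0.06, and the receptor genes Ncr1 (0.48 ± 0.26), Klrk1 (0.45 ± 0.22) and Klrd1 (0.09 ± 0.24) and the factor Eomes (0.42 ± 0.16) did not pass. Of 8 B cell markers 2 were tested and both rose in DKO cells, Ighm (2.55 ± 0.41) and Cd79b (1.18 ± 0.28), with a sum of 142 to 195 RPKM in DKO against 20.7 to 40.1 RPKM in Cre only libraries. Of 8 myeloid markers 1 was tested, Cd14, which rose (1.06 ± 0.31), and the 2 in the table summed to 1.47 to 3.47 RPKM in DKO against 0.0778 to 0.614 RPKM in Cre only libraries. Of the ILC2 and ILC3 markers Il7r (2.15 ± 0.43) and Rora (1.27 ± 0.42) rose and Kit fell (-1.31 ± 0.27) among 4 tested, and the 6 in the table summed to 44.4 to 79.98 RPKM in DKO against 70.4 to 145 RPKM in Cre only libraries. Prf1 fell, and Cd79b, Cd14 and Il23r rose, in Ikzf1 KO cells among all 16 markers of these kinds that were tested. Of all genes 6.32% were called there in either direction. In Ikzf3 KO cells Nkg7, Gzma and Tbx21 fell and Cd14 rose among the same 16, where 14.2% of all genes were called. The part of these cells in the results was not tested.

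Around the Cd3 cluster, 12 genes in the table lay within 200 kb of it, members included, and 5 others were tested. Ift46, Kmt2a, Ube4a and Mpzl3 passed in none of the 6 comparisons. Jaml, a junctional adhesion molecule of leukocytes that starts 69.6 kb from the start of Cd3e, was called in all of them. It stood at 6.37, 6.95 and 11.0 RPKM in DKO libraries, at 1.81, 3.11, 2.89 and 1.52 RPKM in Ikzf1 KO, at 2.87, 2.93, 2.53 and 4.69 RPKM in Ikzf3 KO and at 21.1, 15.02, 20.1 and 20.7 RPKM in Cre only libraries. Relative to Cre only cells Jaml fell in DKO (-1.22 ± 0.25, limma adjusted p = 0.00364), Ikzf1 KO (-2.83 ± 0.23, adjusted p = 5.39e-06) and Ikzf3 KO cells (-2.41 ± 0.23, adjusted p = 3.94e-05). In all 3 groups its libraries lay below every Cre only library. The same was so for 13.2% of all genes in Ikzf1 KO and 10.5% in Ikzf3 KO cells, and was not counted in DKO cells. Cd3d and Cd3e parted from Cre only libraries upwards, in DKO cells, as did 16.1% of all genes. Its departure from additivity was positive, at 4.02 ± 0.34 (adjusted p = 4.32e-05).

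**Figure D5:**
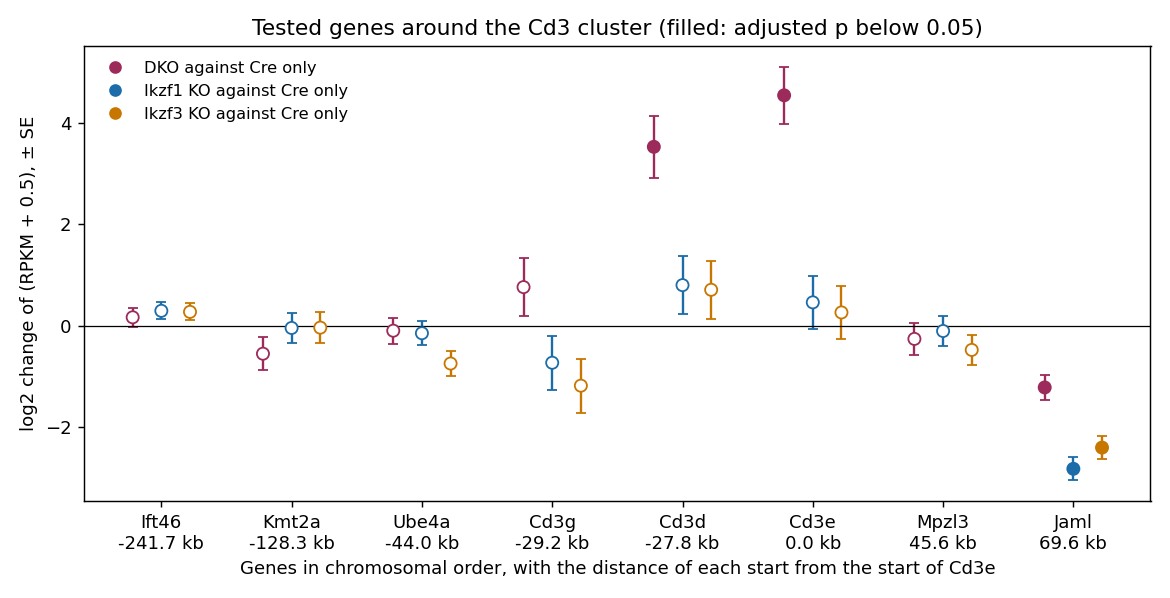
Log2 change of (RPKM + 0.5) against Cre only cells, with bars of 1 SE, for the 8 tested genes in and around the Cd3 cluster in chromosomal order. Only Cd3d and Cd3e in DKO cells, and Jaml in all 3 groups, are filled as past an adjusted p of 0.05, and Jaml is below 0 while Cd3d and Cd3e are above it.

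Likeness across the 15 libraries was measured as Pearson correlation on log2(RPKM + 0.5), over libraries that share their group and so are not independent. Among the 5 genes, Cd3d and Cd3e were the most alike (r = 0.956), Cd3g followed Cd3e (0.714) and Cd3d (0.706) less closely, and Cd28 ran against Bcl11b (-0.74). The genes most like Cd3e outside the 5 were Tcrg-C2 (r = 0.988), Trbv13-2 (0.978) and Trbv14 (0.973), and those most like Cd3d were Tcrg-C2 (0.957), Slfn1 (0.948) and Trbv16 (0.943). Outside DKO cells the highest group mean was 0.687 RPKM for Trbv14, 0.992 for Trbv16 and 0.7615 RPKM for Slfn1. Such genes can pass the filter of 1 RPKM through DKO libraries alone, which favours likeness to genes high there. Tcrg-C2 averaged 135 RPKM in DKO, 5.91 in Ikzf1 KO, 2.94 in Ikzf3 KO and 3.79 RPKM in Cre only cells. For Cd3g the likeness was weaker, to Tcrg-C4 (0.8289), Ube2f (0.820) and Gimap1os (0.812).

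Cd28 was most like Gstk1 (0.916), Qrfp (0.915) and Galnt3 (0.915). Galnt3 averaged 6.16 RPKM in DKO and 7.85 in Ikzf3 KO, against 2.37 RPKM in Cre only cells. Bcl11b was most like Enc1 (0.910), the Notch ligand gene Dll1 (0.901) and Gimap4 (0.899). Dll1 averaged 6.55 RPKM in DKO, 0.897 in Ikzf3 KO and 6.1 in Ikzf1 KO, against 9.43 RPKM in Cre only cells. To the mean standardised profile of the 5 genes, Tcrg-C2 (0.958), Tcrg-C4 (0.951), Slfn1 (0.945), Trac (0.941) and Trgv2 (0.935) came closest.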

How the data were processed

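RNA-seq of cultured mouse NK cells was deposited as 1 table of RPKM per gene and library. The authors computed the RPKM, and per the submitters' processing notes STAR, featureCounts and limma 3.34.9 were used with the build mm10; settings are not given in the sources used here. Per the labels' protocols the libraries were stranded. Columns were assigned to groups by genotype and group size. Reads were recovered with exon lengths of GENCODE release M21: 11291 of 11732 genes (96.2%) came out whole within 0.02 read.

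Genes at 1 RPKM or more in 3 of 15 libraries (10032) were fitted on log2(RPKM + 0.5) with a mean for each group in limma 3.58.1 (on R 4.3.3), a variance trend, robust moderation and 11 residual degrees of freedom, 2-sided, with Benjamini-Hochberg adjustment over all genes. The fit was tested on simulated data. Python 3.11.15, numpy 2.4.6, pandas 2.3.3 and matplotlib 3.10.9 made descriptions and figures.

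The 5 genes, the lists and the tests were chosen with earlier results of these data known. Named beside the 5 genes were up to 4 genes per list with the smallest adjusted p in each comparison with Cre only cells, genes within 200 kb of the Cd3 cluster, and the genes most correlated with each of the 5, predicted genes left out. Other genes, named because a result turned on them, were chosen after their values were seen: Ctla4, Cd247 and Myb in DKO cells, Fcer1g, Cd2 and Cd27 in DKO cells, Trbc1, Ncr1, Klrk1, Klrd1, Lat, Ubash3a, Trdc, Tcrg-C4 and the values of Cd4, Cd8a, Cd6 and Themis. Some genes chosen by a rule are summarised only in counts. Alternatives were other pseudocounts (0.1 and 1), filters, median-ratio scaling, array weights, a fit of the compared groups alone and leaving out libraries; leaving out pairs for the list counts was added after seeing the data.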

Additional observations from a re-analysis of the deposited data

Results flagged for a closer look

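For 2 of the 5 genes the effect of losing Ikaros differed, by a test of the difference itself, between cells with and without Aiolos. For Cd3e the effect was larger by 3.84 on the log2 scale where Aiolos was also missing (limma adjusted p = 0.00874), with all 3 DKO libraries above the other 12. For Bcl11b the effect differed by 1.83 (limma adjusted p = 0.00642): DKO libraries lay above all 4 Ikzf3 KO libraries, whereas Ikzf1 KO libraries lay below all 4 Cre only libraries. The levels of Bcl11b in Ikzf3 KO cells rested on 17 to 38 reads per library. No library stood outside its group by Dixon's test in the 15 sets looked at (5 genes in the 3 groups of 4 libraries), of which chance would flag about 1 in 20.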

How the results depend on the processing

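With all libraries the number of the 5 genes called was 0 in Ikzf1 KO, 2 in Ikzf3 KO and 3 in DKO cells against Cre only cells, 3 in DKO against Ikzf1 KO, 4 in DKO against Ikzf3 KO cells and 2 for the departure from additivity. Of the alternatives other than single libraries left out, these changed such a count by over 1.5 times. In Ikzf1 KO cells 1 gene (Bcl11b) was called with array weights (adjusted p = 0.00159) and 1 without S18 and S19. The stricter filter (a mean RPKM of 2 and 4 libraries) left Bcl11b out, so that 1 remained in Ikzf3 KO cells and 1 for the departure. Without S18 and S19 the departure was called for 4. Leaving out 1 library at a time gave 0 to 0, 2 to 3, 3 to 3, 2 to 3, 3 to 4 and 2 to 3 genes in the order above.

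The sign turned for these values, none of which had been called with all libraries. With single libraries left out, Cd28 in Ikzf1 KO cells ran from -0.385 to 0.103 and Cd3e in Ikzf3 KO cells from -0.1 to 0.663. In Ikzf1 KO cells Cd28 stood at 0.295 with array weights, 0.58 without S18 and S19, 0.058 without S15 and 0.103 without S18 or without S19, Cd3g at 0.127 without S16 and S17, Cd3d at -0.286 and Cd3e at -0.618 without S18 and S19. In Ikzf3 KO cells Cd3e stood at -0.024 with array weights, -0.817 without S18 and S19, -0.1 without S18 and -0.098 without S19, and Cd3d at -0.378 without S18 and S19. In DKO against Cre only cells Bcl11b stood at 0.063 when S16 and S17 were left out, and Cd3g at -0.101 without S18 and S19. Against Ikzf1 KO cells Bcl11b stood at -0.055 with array weights, and the departure of Cd28 was 0.066 without S16 and S17. Leaving out S18 and S19 removes the Cre only libraries in which the CD3 chains were low, and leaving out S16 and S17 those in which they were high.

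Other calls that moved were Bcl11b in DKO against Cre only cells, gained with array weights (-0.87, adjusted p = 0.047), Cd3g in DKO against Ikzf1 KO cells, gained when only these groups were fitted (adjusted p = 0.0435) and Cd28 in DKO against Ikzf3 KO cells, gained when S16 and S17 (adjusted p = 0.0475) or S18 and S19 (adjusted p = 0.0464) were left out. Cd3g in DKO against Ikzf3 KO cells was lost with array weights (adjusted p = 0.193). The cause was not tested. Cd3d, Cd3e and Cd28 in DKO against Cre only cells and Cd28 in Ikzf3 KO cells kept their calls under every alternative run, and Bcl11b in Ikzf3 KO cells under every one that kept it in the fit. Over these, the log2 change ran from 2.45 to 4.62 for Cd3d, 3.48 to 5.63 for Cd3e and 1.15 to 2.58 for Cd28 in DKO cells, and from 1.93 to 3.36 for Cd28 and -2.36 to -1.11 for Bcl11b in Ikzf3 KO cells.

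The number of all genes called moved more. In Ikzf1 KO against Cre only cells (634) it was 3746 with array weights, 2009 with only these groups in the fit, 1708 without S3 and S4 and 375 without S16 and S17. In Ikzf3 KO against Cre only cells (1423) these gave 2201, 448 and, without S16 and S17, 571, and 766 when S18 and S19 were left out. In DKO against Cre only cells (1872) array weights gave 3059, leaving out S3 and S4 3684 and leaving out S16 and S17 1113. In DKO against Ikzf1 KO cells (750) the stricter filter gave 475, array weights 2076, only these groups 1771 and leaving out S3 and S4 2142. In DKO against Ikzf3 KO cells (2012) only these groups gave 678. For the departure (657) the stricter filter gave 425, array weights 1447 and leaving out S3 and S4 1036. Single libraries left out gave 334 to 731, 831 to 3004, 1040 to 1919, 395 to 828, 1231 to 3099 and 379 to 848 genes in the same order. The array weights did not fully converge. No paired analysis was possible because the columns carry library numbers, not the replicate numbers of the labels. Depth limits Bcl11b in Ikzf3 KO cells and Cd3e in S15, S18 and S19, which rested on under 40 reads each.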
